A study of Mus musculus with 6 samples.

Results

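The Hox genes of the mouse were followed across 6 microarrays of newborn dorsal root ganglia. A gene was taken as a member when a non-control probe on the array matched, by its transcript accession, a RefSeq gene named Hoxa, Hoxb, Hoxc or Hoxd followed by a number. This rule used no measured value. It found 36 Hox genes, read by 46 of the 41174 non-control probes, among 17178 genes that could be named in all. Hoxc4, Hoxc6 and Hoxc11 had no probe matched here, so 36 of the 39 Hox genes of the RefSeq table were covered. Of the 36 genes, 10 had several probes, and each gene was then described by its brightest probe that could be tested.

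Hox genes encode homeodomain transcription factors that lie in the Hoxa, Hoxb, Hoxc and Hoxd clusters. The order of the genes along a cluster follows the order of their expression from head to tail, and the number in the name is the paralogue group, shared between clusters. Genes of low number are active from the hindbrain downwards, those of middle number in the neck and trunk, and those of groups 10 and above around the hip, pelvis and tail. Neurons and neural crest derivatives keep much of this code after birth, so a Hox profile of ganglia depends in part on the spinal levels they were taken from.

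The arrays compared dorsal root ganglia of wild-type (WT) littermates with those of dt27J mice, which carry a mutant allele of the dystonin gene Dst. All animals were on the C57BL/6 background and were taken at postnatal day 4. There were 3 animals per genotype, from 2 litters, and each array held the Cy3-labelled RNA of 1 animal. The ganglia were frozen whole and held sensory neurons, glia, vessels and sheath, and the labels do not give the spinal levels that were collected. WT 1, WT 2, dt27J 1 and dt27J 2 carried the earlier of 2 dates in their descriptions and lay on the same slide. WT 3 and dt27J 3 carried the later date and lay on another slide. The labels do not tie animals to litters, so litter, date and slide cannot be told apart. In whole ganglia, fewer cells of a type and less RNA per cell also cannot be told apart.

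The signal at the 75th percentile, the value each array was scaled to, ran from 369.5 to 580 over the arrays, and between 63.1% and 71.4% of probes were well above background. No probe was saturated. The 3 Dst probes were lower in dt27J by 2.68, 2.46 and 2.42 on the log2 scale (limma, adjusted p = 0.0341, 0.0454 and 0.0376), and every dt27J array was below every WT array. All 15 measured markers of sensory neurons were well above background on all 6 arrays. Every value below is a log2 signal relative to the array's 75th percentile, so that 0 is that percentile and 1 unit is a doubling, and levels of different probes are not compared. The small number of arrays limits the precision, and p-values measure the spread between these animals. In the fit with an interaction of genotype and date, that spread comes from the first-date arrays alone.

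Hox genes of the head end, neck and trunk were measured in all ganglia, and those of the tail end mostly were not. Of the 36 genes, 25 were well above background on all 6 arrays, and these 25 were the ones tested. They comprised 6 of 8 genes of groups 1 to 3, 5 of 6 of groups 4 and 5, 10 of 11 of groups 6 to 9, 4 of 5 of groups 10 and 11, and 0 of 6 of groups 12 and 13. By cluster they were 10 of 11 Hoxa, 7 of 10 Hoxb, 3 of 6 Hoxc and 5 of 9 Hoxd genes. Hoxb1, Hoxc8, Hoxb13, Hoxc13 and Hoxd13 were not well above background on any array. Hoxd11 and Hoxd12 passed that limit on 1 array each, dt27J 3 and WT 3. Hoxa13 passed it on WT 3 alone. Hoxd3 passed on 2 arrays, and Hoxc12 on WT 1 and WT 2. Hoxb4 had no value on WT 1, where its spot was called an outlier, and was above background on the other 5 arrays, between -4.29 and -3.43.

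**Figure D1:**
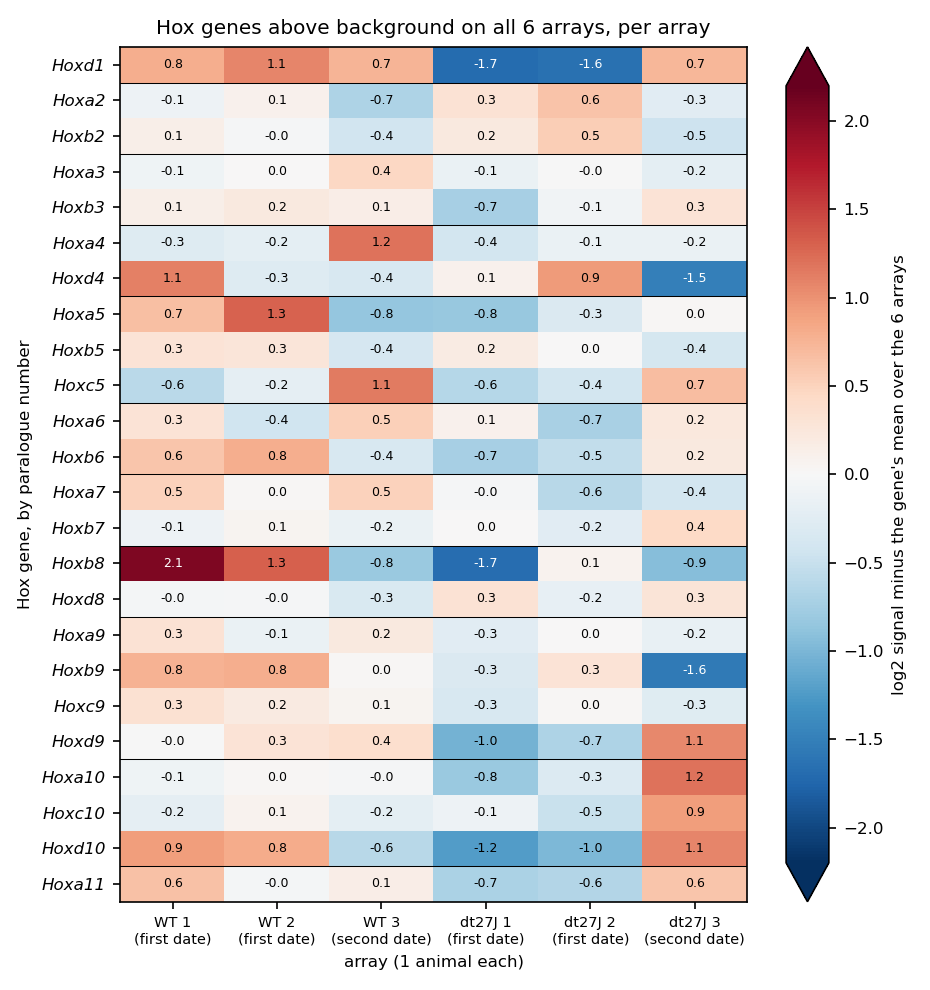
Log2 signal of 24 of the 25 tested Hox genes (rows, by paralogue number) on the 6 arrays (columns), each minus the gene's mean over the arrays. Red is above and blue below that mean. In the rows of Hoxa10, Hoxc10, Hoxd10 and Hoxa11, dt27J 3 is above dt27J 1 and dt27J 2.

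No Hox gene passed the test between genotypes. In the limma fit of genotype with date as a covariate, 0 of 25 genes had an adjusted p under 0.05, where 3.19% of all 26248 tested probes did. The smallest adjusted p was 0.0695, for Hoxb9. At an unadjusted p under 0.05 there were 4 genes, 16.0% of the 25, against 27.7% of all probes, so the share of the Hox genes was not above that of the array. Fitted differences were below 0 for 19 genes and above 0 for 6. Their median was -0.32, beside -0.05 over all tested probes. In 3 genes, Hoxd1, Hoxa7 and Hoxc9, every dt27J array was below every WT array, which is 12.0% of the genes against 16.0% of all probes. In 0 of 25 genes were all dt27J arrays above all WT arrays, which held for 12.8% of all probes.

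**Figure D2:**
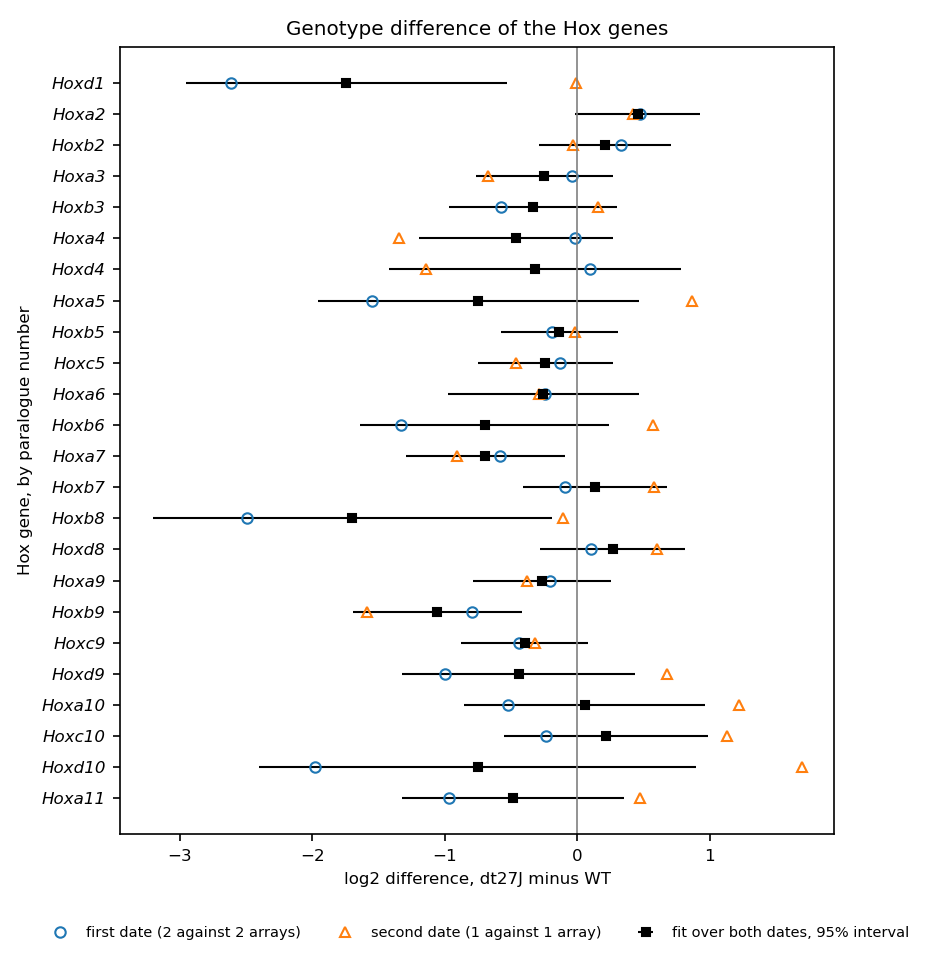
Difference between dt27J and WT (log2, x axis) for the same 24 Hox genes (y axis, by paralogue number). Squares with bars give the fit over both dates with its 95% interval; circles give the first date and triangles the second. The circles and triangles of Hoxd10 lie on opposite sides of 0, at -1.98 and 1.70.

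Among the trunk genes, the values nearest to the threshold were those of Hoxb9, Hoxa7 and Hoxb8. Hoxb9, a gene of the thoracic region, read 0.43, 0.47 and -0.30 in WT 1 to 3 and -0.65, -0.04 and -1.89 in dt27J 1 to 3. The groups overlapped, with WT 3 inside the range of the dt27J arrays and dt27J 3 the lowest of all. The mean was 0.20 ± 0.43 in WT and -0.86 ± 0.94 in dt27J (SD, n = 3 each), a difference of -1.06 (SE 0.27, limma adjusted p = 0.0695) that did not pass. The second tested Hoxb9 probe differed by -0.67.

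Hoxa7, active along the thoracic spine, read 3.72, 3.23 and 3.71 in WT and 3.18, 2.61 and 2.81 in dt27J. All dt27J arrays were lower, but the gap between the nearest arrays was small. The difference was -0.69 (SE 0.25, limma adjusted p = 0.140). Hoxc9, which sets thoracic motor neuron identity, read 2.75, 2.61 and 2.46 in WT and 2.06, 2.43 and 2.15 in dt27J. Here too the groups did not overlap, and the difference was -0.40 (SE 0.20, limma adjusted p = 0.250).

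Hoxb8, a trunk gene also active in blood cell precursors and the dorsal horn, read -0.81, -1.56 and -3.69 in WT and -4.55, -2.80 and -3.80 in dt27J. WT 1 and WT 2 stood above the other 4 arrays. The fitted difference was -1.70 (SE 0.63, limma adjusted p = 0.145), and the dim second probe, above background on no array, gave -0.59. Hoxc12 also had WT 1 and WT 2 on top, at -3.47 and -4.13 in WT 1 and WT 2 and between -7.83 and -6.76 on the rest, where it was not well above background.

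The spinal cord marker list, of 16 genes with 8 above background on all 6 arrays, was also high in WT 1 and WT 2. Its summed level, in multiples of the 75th percentile signal, was 30.9 and 24.4 there and between 1.83 and 2.49 on the other 4 arrays. Of its genes, 15 were above background on each of WT 1 and WT 2, and 12, 10, 9 and 14 on WT 3 and dt27J 1 to 3. Its neuronal gene Lhx5 was above background on WT 1 and WT 2 and on no other array. Whether spinal cord RNA has a part in the Hoxb8 and Hoxc12 values was not tested.

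Among the head-end and neck genes, Hoxd1 had the lowest fitted difference of all 25 genes, -1.74, and is described below with its dates. Hoxa2 and Hoxb2, hindbrain patterning genes, had fitted differences of 0.46 and 0.21 (limma adjusted p = 0.193 and 0.543). Hoxa3 and Hoxb3 had values of -0.25 and -0.33. In groups 4 and 5 all 5 tested genes were below 0, from -0.75 for Hoxa5, which patterns the neck and the lung, to -0.13 for Hoxb5. The second probe of Hoxa4 read -1.56 where the brightest read -0.46, and the second probes of Hoxa3, Hoxd3 and Hoxc10, above background on 2, 0 and 2 arrays, had the opposite sign to the brightest. The 95% interval of the difference was -0.78 to 0.26 for Hoxa9, -0.41 to 0.68 for Hoxb7 and -0.85 to 0.97 for Hoxa10, so changes of these sizes could not be told from 0.

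The dates did not separate the Hox genes past the threshold either. For the second against the first date, 0 of 25 genes passed the limma test, where 0.107% of all probes did, and 8 genes, 32.0%, had an unadjusted p under 0.05 against 15.3% of all probes. The smallest adjusted p was 0.121, for Hoxc5, a gene of the neck. Hoxc5 read -4.94, -4.55 and -3.21 in WT and -4.98, -4.76 and -3.68 in dt27J. WT 3 and dt27J 3 were thus the highest arrays, with a date difference of 1.36 (SE 0.23).

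The genotype difference itself depended on the date for 2 Hox genes. On the first date 21 of 25 genes had a lower mean in dt27J, with a median of -0.32, and on the second date 13 of 25, with a median of -0.01. Over all 26248 tested probes, 13258 were lower on the first date, with a median of -0.008. On the second date 15046 of them were, with a median of -0.13. The sign was opposite between the dates in 12 genes, a description only, as the share over all probes is not given here. In the limma fit with an interaction of genotype and date, Hoxd1 and Hoxd10 passed, 8.00% of the tested genes where 0.831% of all probes passed. At an unadjusted p under 0.05 there were 9 genes, 36.0% against 27.5% of all probes. Of these, 8 had a positive interaction, 32.0% against 11.9% of all probes, and Hoxa4 had a negative one. The second date holds only 1 array per genotype, so each interaction rests on dt27J 3 and WT 3. The fit matches these arrays exactly, so its p holds no measure of the spread between animals of the second date.

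Hoxd1 and Hoxd10 lie on chromosome 2 in the Hoxd cluster. Their promoter windows, 250 bases before to 50 after the start in RefSeq on GRCm38.p6, are shown because theirs are the interactions that passed. Hoxd1 is at chr2:74762730-74763029 and Hoxd10 at chr2:74691641-74691940, both on the + strand and read 5′ to 3′. Capitals mark matches on either strand to CCAAT (bound by NF-Y), CACGTG (the palindromic E-box), AGGTCA (the half-site of nuclear receptors, which include the retinoic acid receptors) and TTTATG (bound by Cdx factors).
Hoxd1: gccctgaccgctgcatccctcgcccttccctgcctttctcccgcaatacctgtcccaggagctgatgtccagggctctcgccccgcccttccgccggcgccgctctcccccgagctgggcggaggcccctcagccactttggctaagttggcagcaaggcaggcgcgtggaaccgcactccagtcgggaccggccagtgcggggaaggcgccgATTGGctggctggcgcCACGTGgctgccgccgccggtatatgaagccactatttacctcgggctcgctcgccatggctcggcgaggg
Hoxd10: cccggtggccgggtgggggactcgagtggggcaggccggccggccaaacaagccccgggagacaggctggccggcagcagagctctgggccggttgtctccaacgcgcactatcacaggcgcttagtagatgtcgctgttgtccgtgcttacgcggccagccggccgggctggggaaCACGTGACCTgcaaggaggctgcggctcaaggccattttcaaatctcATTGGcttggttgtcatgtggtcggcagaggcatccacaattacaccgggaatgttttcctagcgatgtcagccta
Both windows hold 1 CCAAT match and 1 CACGTG match. The Hoxd10 window also holds 1 AGGTCA match, on the other strand, which overlaps the CACGTG match. TTTATG is in neither window. Of all 32851 windows of this length in the table, 37.4% hold CCAAT, 7.15% CACGTG, 16.3% AGGTCA and 11.9% TTTATG. Windows were present for 21 of the 36 Hox genes, of which 14 had CCAAT, 5 CACGTG, 6 AGGTCA and 5 TTTATG.

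Hoxd1, a gene of group 1 that in mice is known for its part in the development of pain-sensing neurons, read 0.75, 1.03 and 0.69 in WT 1 to 3. It read -1.74, -1.70 and 0.68 in dt27J 1 to 3. The first 2 dt27J arrays were far below the rest, and dt27J 3 lay just below the lowest WT array. The genotype difference was -2.61 on the first date and -0.01 on the second, an interaction of 2.60 (SE 0.34, limma adjusted p = 0.0458). Over both dates the difference was -1.74 (SE 0.51, 3.35-fold lower, limma adjusted p = 0.0889), with means of 0.82 ± 0.18 in WT and -0.92 ± 1.39 in dt27J (SD, n = 3 each).

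The sensory neuron marker list was also lowest in dt27J 1 and dt27J 2. Its mean, centred on each gene's mean over the arrays, was 0.30, 0.45 and 0.38 in WT and -0.67, -0.52 and 0.07 in dt27J, and its summed level was between 243 and 278 in WT and 146, 178 and 226 in dt27J. Tlx3, of this list, which specifies sensory neuron subtypes, fell between genotypes by 2.40 (SE 0.46, limma adjusted p = 0.0491). It read 0.05, 0.38 and 0.00 in WT and -3.20, -2.63 and -0.94 in dt27J. Whether the number or the content of sensory neurons has a part in the Hoxd1 values was not tested.

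Hoxd10, which patterns the lumbar spine and hind limb innervation, read -1.52, -1.62 and -3.06 in WT. In dt27J it read -3.67, -3.43 and -1.36. WT 1, WT 2 and dt27J 3 formed the high arrays and the other 3 the low ones, so each genotype had arrays on both sides. The genotype difference was -1.98 on the first date and 1.70 on the second, an interaction of 3.67 (SE 0.33, limma adjusted p = 0.0220). The difference over both dates was -0.75 (SE 0.69, limma adjusted p = 0.510), with means of -2.06 ± 0.86 in WT and -2.82 ± 1.27 in dt27J (SD, n = 3 each). With normexp the Hoxd10 interaction was 1.05 and did not pass (limma adjusted p = 0.0846), and with high local backgrounds replaced as well it was 2.00 (limma adjusted p = 0.00253). Both calls of an interaction were lost on leaving out WT 1 or WT 2 and kept on leaving out dt27J 1 or dt27J 2. The calls over all probes also depended on the array left out. Each such fit leaves 1 array of that genotype on each date, so only sizes are given. The Hoxd1 interaction was 2.74 without WT 1, 2.46 without WT 2, 2.58 without dt27J 1 and 2.62 without dt27J 2. In the same order the Hoxd10 interaction was 3.62, 3.72, 3.55 and 3.79.

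**Figure D3:**
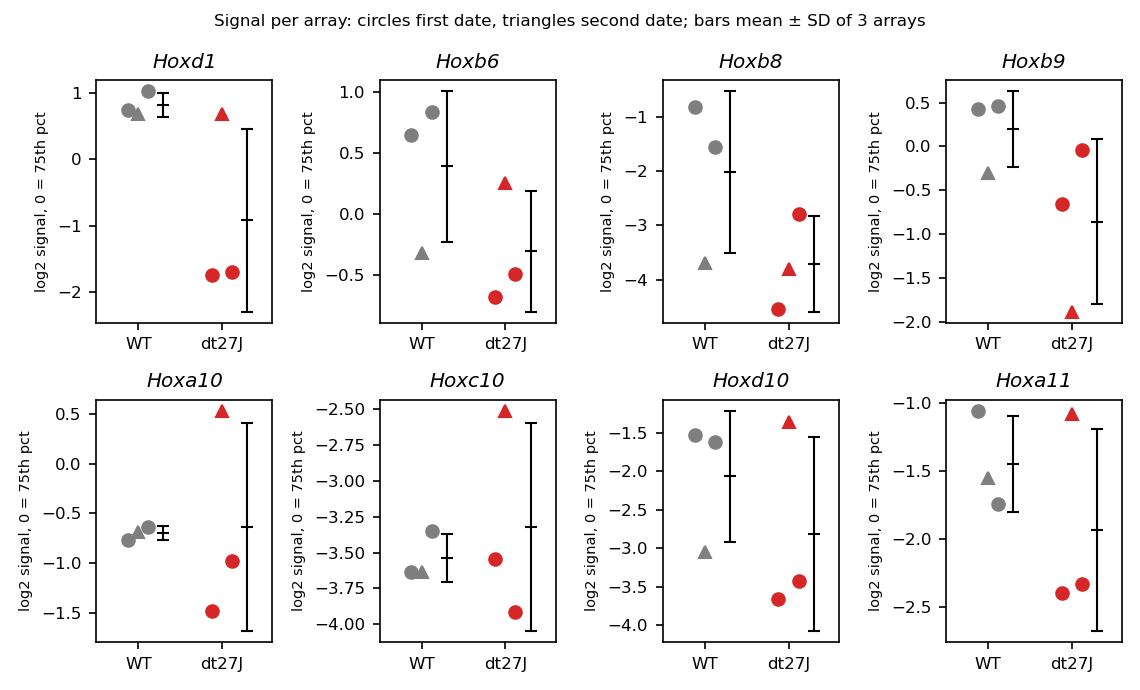
Log2 signal relative to the 75th percentile (y axis) of 8 Hox genes by genotype, 1 point per array, with circles for the first date and triangles for the second. Bars give the mean and SD of the 3 arrays. The triangle of dt27J is the highest dt27J point for Hoxd1, Hoxb6, Hoxa10, Hoxc10, Hoxd10 and Hoxa11 and the lowest for Hoxb9.

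The other lumbosacral genes were also highest in dt27J 3 among the dt27J arrays. Hoxa10, which patterns the lumbar region, read -0.77, -0.64 and -0.69 in WT and -1.48, -0.97 and 0.53 in dt27J. dt27J 3 was above all other arrays and dt27J 1 and dt27J 2 were below them. The interaction was 1.74 (SE 0.40, limma adjusted p = 0.0780). Hoxc10, of the lumbar spinal cord, read -3.64, -3.35 and -3.64 in WT and -3.54, -3.91 and -2.51 in dt27J. Again dt27J 3 was the highest array, and the interaction was 1.37 (SE 0.39, limma adjusted p = 0.104). Hoxa11, known for the limb and the kidney, read -1.06, -1.74 and -1.56 in WT and -2.40, -2.34 and -1.08 in dt27J. dt27J 3 lay within the WT range and the other dt27J arrays below it, with an interaction of 1.44 (SE 0.46, limma adjusted p = 0.125). None of these 3 passed the adjusted threshold, and all 4 tested genes of groups 10 and 11 had an unadjusted p under 0.05.

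Set by paralogue group, dt27J 3 stood above the mean of dt27J 1 and dt27J 2 by a median of 1.52 over the 4 genes of groups 10 and 11. The medians were 0.02 in groups 1 to 3, 0.12 in groups 4 and 5 and 0.09 in groups 6 to 9, and -0.08 over all tested probes. By cluster they were 1.91 for the 5 tested Hoxd genes, 1.19 for the 3 Hoxc genes, 0.15 for Hoxa and -0.13 for Hoxb, so groups 10 and 11 were not the sole set with a high median. The largest single value was that of Hoxd1, 2.40. Within the trunk groups the genes went both ways: dt27J 3 was above the other dt27J arrays by 1.91 for Hoxd9 and below them by 1.54 for Hoxb9 and by 2.01 for Hoxd4. In WT the same contrast, WT 3 against WT 1 and WT 2, had a median of -0.15 in groups 10 and 11. Hoxd10 was the lowest of the 4 genes, at -1.49, and the highest was at 0.02. Hoxd9, at the edge of trunk and lumbar levels, read -2.90, -2.59 and -2.52 in WT and -3.93, -3.56 and -1.84 in dt27J. It had dt27J 3 as its highest array, as Hoxa10, Hoxc10 and Hoxd10 did.

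To ask whether the ganglia differed in axial level, an index was formed on each array as the mean of the centred values of groups 10 to 13 minus that of groups 4 to 9. Genes had to be well above background on at least 3 arrays, which left 4 posterior and 15 trunk genes. The index was -0.08, -0.03 and -0.23 in WT 1 to 3 and -0.34, -0.44 and 1.12 in dt27J 1 to 3. dt27J 3 lay above the other 5 arrays, and dt27J 1 and dt27J 2 were the lowest. With normexp background correction WT 3 was at 0.56, beside 0.60 in dt27J 3, and with high local backgrounds replaced before it WT 3 was at -0.11 and dt27J 3 at 0.72. With every Hox gene included whatever its signal, dt27J 3 was at 0.39 and dt27J 1 at 0.05. The mean was -0.11 ± 0.10 in WT and 0.11 ± 0.87 in dt27J (SD, n = 3 each), a difference of 0.23 that was smaller than the SD within dt27J. By date the genotype difference was -0.33 on the first and 1.35 on the second. The second date exceeded the first by 0.67, and without dt27J 3 that difference was -0.17 and the genotype difference -0.28. With normexp the genotype difference was -0.069. The index is a difference within an array, which no scaling of a whole array moves, and it was not tested.

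**Figure D4:**
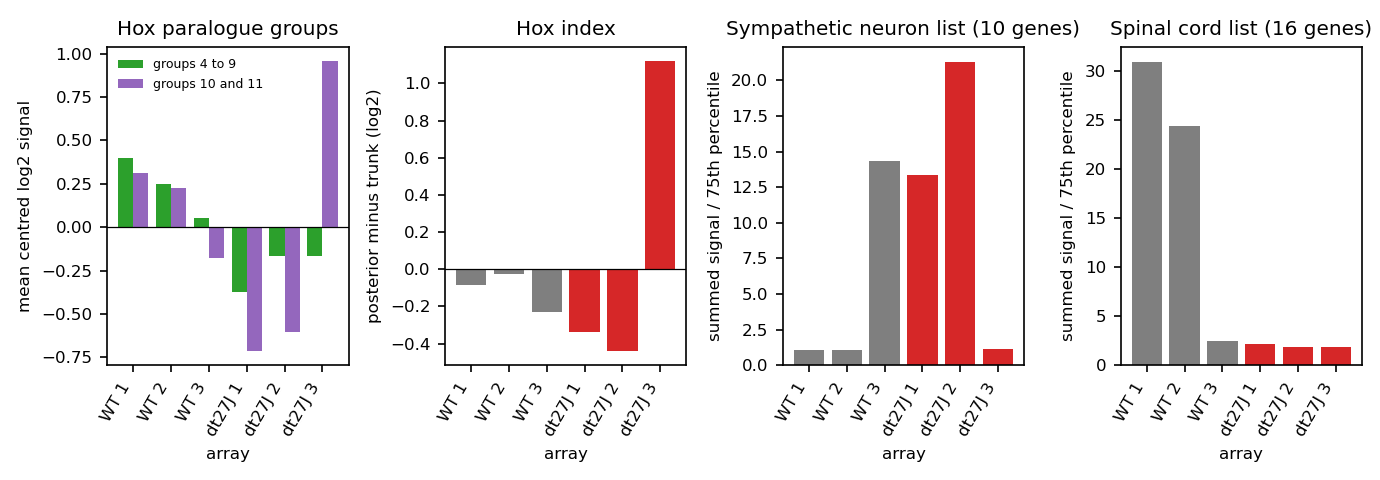
From left to right, per array: mean centred log2 signal of Hox groups 4 to 9 and of groups 10 and 11; their difference, the Hox index; and the summed signal, in multiples of the 75th percentile, of the sympathetic neuron and spinal cord marker lists. Grey bars are WT and red bars dt27J. The index of dt27J 3 is 1.12 and every other array is below 0.

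Markers of sympathetic neurons, which lie in ganglia beside the spine, split the arrays into the same sets as Hoxd10, with high and low exchanged. The summed level of the 10 genes was 1.05, 1.09 and 14.3 in WT 1 to 3 and 13.4, 21.3 and 1.11 in dt27J 1 to 3. Arrays with a high sum, WT 3, dt27J 1 and dt27J 2, were those with low Hoxd10. All 10 genes were above background on those 3 arrays, and 7, 7 and 9 were on WT 1, WT 2 and dt27J 3. Dbh, the enzyme that makes noradrenaline, read -4.14, -4.05 and 0.89 in WT and 0.44, 0.32 and -5.08 in dt27J. Of the 9 tested genes, 7 had an interaction that passed (limma), all negative. Over all 26248 tested probes, 124 had a negative interaction that passed. The list was chosen with earlier results of these data known, so its count is a description only. Hand2 and Gata3 were tested through the dt27J arrays, as neither was above background on WT 1 or WT 2. The list median, -9.43, is the value of Gata3, so it includes signals below background.

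Hoxb6, a trunk gene, split the arrays as Hoxd10 did, at 0.65, 0.84 and -0.32 in WT and -0.68, -0.50 and 0.26 in dt27J, with an interaction of 1.91 (SE 0.33, limma adjusted p = 0.0578). The 16 muscle markers had a summed level of 37.7 and 37.1 in WT 1 and WT 2 and between 129 and 274 on the other 4 arrays. The parts of sympathetic ganglia, muscle and spinal cord in the Hox values were not tested.

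Within the first date alone, 2 WT against 2 dt27J arrays, 25 Hox genes were well above background on all 4 arrays, and 7 of them passed the limma test, all lower in dt27J. That is 28.0%, against 11.7% of the 24324 probes above background on all 4 arrays that were called lower. In either direction, 6860 of the 26480 probes tested on this date passed. That larger set also holds probes above background in only 1 genotype. The differences were -2.61 for Hoxd1, -1.55 for Hoxa5, -1.33 for Hoxb6, -2.49 for Hoxb8, -1.98 for Hoxd10 and -0.97 for Hoxa11, with adjusted p from 0.00387 to 0.0485. Hoxd9 also passed (limma adjusted p = 0.0294). Hoxc12, above background on the WT arrays of this date and on no dt27J array, stands outside these counts, since it could enter only through the group where it was high. For it only a bound can be given, at least 3.04-fold higher in WT (measured means -3.80 and -7.08). The bound sets the WT mean against the lowest signal well above background on the dt27J arrays. On the second date the difference was above 0 for Hoxa5, Hoxb6, Hoxd9, Hoxd10 and Hoxa11, and no test is possible there with 1 array per genotype. For Hoxd9 this held for the brightest probe only, and its second tested probe differed by -0.20 on that date. On the first date the spinal cord, sympathetic and muscle lists also differed between the genotypes, with median differences of -3.70, 4.47 and 2.38, beside -0.10, -4.02 and 0.20 on the second date.

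Genes that act with or on the Hox genes were called between genotypes at 1 of 43 tested cofactors, signalling genes and chromatin regulators, 2.33%, beside the 3.19% of all probes. Of the 9 measured cofactors, the Pbx, Meis and Pknox proteins that bind DNA beside Hox factors, 0 passed the limma genotype test. Meis3 read -1.03, -0.71 and -0.91 in WT and -1.75, -1.77 and -1.54 in dt27J. Its groups did not overlap, and the difference was -0.81 (SE 0.20, adjusted p = 0.0672). Meis2 had no overlap either, with a fitted difference of -0.90 (SE 0.26, limma adjusted p = 0.0861).

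Retinoid, Cdx and Gdf11 signals set the Hox code along the embryo. Of 19 measured genes of this list, 14 were tested and 0 passed the limma genotype test. Rxra, a partner of the retinoic acid receptors, differed by 1.06 (SE 0.25, adjusted p = 0.0630), and Cyp26b1, which degrades retinoic acid, by 0.74 (SE 0.19, adjusted p = 0.0712).

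Polycomb and trithorax proteins keep Hox genes silent or active. Of their 20 tested genes 1 rose, Ezh2, the methyltransferase of Polycomb complex PRC2. It read -0.87, -0.83 and -0.74 in WT and 0.50, 0.16 and 0.32 in dt27J. All dt27J arrays were higher, with a difference of 1.14 (SE 0.20, limma adjusted p = 0.0472). Eed, of the same complex, differed by 1.19 (SE 0.25, limma adjusted p = 0.0538). Suz12 and Ezh1, also PRC2 genes of the list, lay below 0, at -0.10 and -0.70 (limma adjusted p = 0.811 and 0.226). The medians of the genotype difference were -0.36 for the cofactors, 0.26 for the signalling list and 0.19 for the Polycomb and trithorax list.

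Of 12 tested genes that flank the Hox clusters, 0 passed the limma genotype test, and their median was 0.01. None of 16 listed non-coding RNAs of the clusters had a probe matched here. Of 12 measured genes that mark body levels outside the clusters, 3 were tested and Tbx15, a T-box factor of limb, trunk muscle and skin mesenchyme, rose by 1.75 (SE 0.21, limma adjusted p = 0.0376). Tbx15 read -2.10, -2.18 and -1.94 in WT and -0.16, -0.25 and -0.54 in dt27J, with no overlap. The summed level of the fibroblast and meninges list was 957 and 989 in dt27J 1 and dt27J 2 and 460 and 420 in WT 1 and WT 2. On the second date it was 503 in dt27J 3 and 678 in WT 3. The mean of the list, centred per gene, was -0.125 in dt27J 3 and -0.117 in WT 3. Whether fibroblast content has a part in the Tbx15 values was not tested.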

How the data were processed

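Total RNA of 6 dorsal root ganglion samples was hybridised to single-colour Agilent arrays, 1 animal per array. The deposited scanner files hold spot intensity, made by the authors with Agilent Feature Extraction 10.5.1.1 (version per the submitters' processing notes) and, per the file headers, already background-corrected in the processed signal. The authors' deposited table holds log2 values of the same arrays, with their centring unstated, and served as an alternative. Here the log2 processed signal minus each array's 75th percentile was used. Control spots and outlier spots were left out, and spots of a probe were averaged. Of 41174 probes, 24844 were named through RefSeq (GRCm38.p6) by accession without version, and Hox promoters came from the RefSeq table of that build. A probe was tested when it had a value on all 6 arrays and exceeded background clearly (the scanner's flag, called well above background) on the 3 arrays of either genotype (26248 probes). The tests were limma 3.58.1 (R 4.3.3) lmFit and eBayes with Benjamini-Hochberg adjustment over all tested probes at 0.05: genotype plus date, genotype with date interacting, and the first date alone. They were tested on simulated data. The brightest tested probe stood for a gene. Every Hox gene could be named. Of other lists, the 3 genes with the smallest genotype p, the 3 with the smallest date p and the brightest could be. Lhx5, Dbh, Suz12 and Ezh1, outside that rule, were chosen after their values were seen. The members and lists were chosen with earlier results of these data known. Alternatives covered scaling, normexp with an offset of 50, filters, blocks, array weights and leaving out each array; that of the interaction without each array was added after seeing the data. Some single-gene results, including 1 Hox gene left out of the figures, are not reported here; counts and medians include them.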

Additional observations from a re-analysis of the deposited data

Results flagged for a closer look

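The genotype difference of 2 Hox genes differed between the dates by the interaction term of limma. Hoxd1 had an interaction of 2.60 on the log2 scale (adjusted p = 0.0458), with the difference at -2.61 on the first date and -0.01 on the second. Hoxd10 had an interaction of 3.67 (adjusted p = 0.0220), with the difference at -1.98 and 1.70. Both rest on the single pair of arrays of the second date, and the p-values hold no measure of the spread between animals of that date. With normexp the Hoxd10 interaction was 1.05 (limma adjusted p = 0.0846).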

How the results depend on the processing

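The genotype test (limma) called 0 Hox genes under 11 of 14 whole-design alternatives. It called 1 with normexp and replaced high local backgrounds, where 1416 of 26248 probes passed in all. With array weights, whose estimate did not converge, it called 11, and 12199 of 26248 probes passed. On the first date only it called 8 (7 without Hoxc12, which entered through WT alone), and 6860 of 26480 probes passed. Leaving out 1 array gave 0 to 8 Hox genes. There were 8 without WT 3 (6833 of 26374 probes in all) and 7 without dt27J 3 (6803 of 26356). The median difference was -0.012 on the second date only, beside -0.13 over all tested probes. The labels do not say whether animals of the same replicate number were paired. Correlations of same-numbered deviations from the genotype means were 0.219, -0.152 and 0.0625. They cannot decide it, since the deviations still hold the date. With the replicate block in place of the date 0 Hox genes and 2 probes in all passed. The date test called 20 Hox genes with normexp, where 21421 probes passed in all. It called 3 with no filter on dim probes, where 4509 of 41086 probes passed. Leaving out 1 first-date array gave 0 Hox genes and 0 to 2 probes in all. Without WT 3 or dt27J 3 the second date held 1 array, so no counts are given for the date test. The calls of that test, over the Hox genes and over all probes, then depended on which of these was left out. The interaction called 5 with normexp and replaced backgrounds, 4 with the authors' deposited values, 1 with no filter on dim probes and 0 with array weights. Over all probes it called 2723, 1623, 405 and 3 in these settings. Leaving out 1 first-date array left 1 array of that genotype on each date, and the calls then depended on the array left out. The interaction was 2.46 to 2.74 for Hoxd1 and 3.55 to 3.79 for Hoxd10. It could not be fitted without WT 3 or dt27J 3. The genotype difference of the index was -0.0055 as a slope on the paralogue number (log2 per group, another unit) and 1.35 on the second date only. Its date difference ran from -0.17 without dt27J 3 to 1.51 without WT 3. With normexp the genotype difference of the index turned to -0.069, and the Hoxd10 interaction was 1.05 and lost its call. For other settings, the index and median moved by less than 1 SD within a genotype. Of single-gene calls, 8 were lost and 49 gained over all alternatives, and 0 changed sign. The causes were not tested. With 3 arrays per genotype and 1 per genotype on the second date, the intervals of many genes are wide, and genes of groups 12 and 13 were not well above background on most arrays.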
